A study of Mus musculus with 66 samples.

Results

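The 150 genes described here had higher RNA, relative to the median listed gene, in mouse embryonic stem cells given auxin than without it. Auxin was given to degrade the nuclear receptors Esrrb and Nr5a2. The 150 genes were chosen from an expression table of 13957 genes. A gene qualified if it reached 1 TPM, an abundance unit scaled for gene length and library size, in at least 1 of the 18 columns, which left 8999 genes, and if its log2(TPM + 1) with auxin minus that without auxin lay above the median of all these genes at each of the 7 times after release from mitosis and in asynchronous cells. This sign rule was met by 543 of the 8999 genes, or 6.03%. The 150 genes with the highest mean difference over the 7 times were kept, and they are called the raised genes below.

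The RNA-seq came from an E14Tg2a derivative, a mouse embryonic stem cell line of 129/Ola background, in which auxin triggers the degradation of both receptors. Cells were taken with auxin and without auxin as asynchronous cultures, in mitotic arrest, and after release from the arrest at 20, 30, 40, 50 and 60 minutes and later at 90 and 120 minutes, with 3 libraries for each of these 18 groups. The arm is given by the sample titles, because the treatment entry reads control for every RNA library. A second data set, 12 ChIP-seq libraries of Nr5a2 and input from interphase and mitotic cells, was deposited as 1 list of 35266 Nr5a2 peaks. No RNA library came from cells that received auxin but lacked the degradable receptors, so effects of auxin, of Esrrb loss and of Nr5a2 loss cannot be told apart. Whether the libraries within a group were separate cultures is not stated in the labels.

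The authors deposited 1 mean TPM per group, so no value below has a replicate error and no difference between the arms has a test. How deeply each library was sequenced is unknown, because TPM values do not keep it. The rule used the differences at the 7 release times and in asynchronous cells. Those values are given as a description, and mitosis is the only stage that the rule left out.

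Esrrb and Nr5a2 are nuclear receptors that bind similar DNA sites and support the naive pluripotency network of embryonic stem cells. During mitosis most transcription stops and many factors leave the chromosomes. Some factors, Esrrb and Nr5a2 among them, keep binding a share of their sites, which is called mitotic bookmarking, and transcription then restarts in steps as cells enter G1. The study asked how the loss of both receptors changes this restart.

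The listed genes summed to between 17155 and 46542 TPM per column with auxin and between 17189 and 49059 TPM without auxin, lowest in mitosis in both arms. Pluripotency markers were present in both arms, with release means for Pou5f1 of 11.2 TPM with auxin and 12.8 TPM without auxin, for Zfp42 of 26.7 TPM with auxin and 35.2 TPM without auxin, for Nanog of 2.87 TPM with auxin and 4.24 TPM without auxin, for Klf4 of 2.57 TPM with auxin and 3.22 TPM without auxin, and for Tfcp2l1 of 1.28 TPM with auxin and 2.43 TPM without auxin. Of the markers of other cell types in the table, Gata4, Gata6, Cdx2, Krt8, Col1a1 and Thy1 did not exceed 0.227 TPM in any of the 18 columns. Pdgfra reached 0.341 TPM, Eomes 1.13 TPM, Vim 4.22 TPM and Fn1 15.1 TPM. Their part in the results was not tested. Esrrb RNA averaged 3.65 TPM with auxin and 4.01 TPM without auxin over the release times, and Nr5a2 RNA 3.58 TPM with auxin and 3.92 TPM without auxin. These RNA levels do not measure the proteins.

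The name "raised" holds relative to the stage median more than in absolute terms. The median difference of all 8999 genes varied from -0.06 at 60 minutes to 0.08 at 40 minutes on the log2(TPM + 1) scale, so a gene could pass the rule at 60 minutes while slightly lower with auxin. Of the 150 raised genes, 98 were above 0 at all 7 release times, against 3.88% of all genes, 47 at 6 times and 5 at 5 times. The differences were small. The mean over the 7 times reached a 1.2-fold higher TPM + 1 in 2 of the raised genes, Crebzf and Gphn, and the median of the 150 genes was 0.13, against 0.02 for all genes. The lower boundary was not a gap. The last genes kept, Ptprj, Abtb2, Lncpint, H3f3a and Arl6ip6, and the first genes left out, Carnmt1, Ythdc1, Jade3, Dusp10 and Mpp5, all had a mean difference of 0.11 after rounding. A larger mean difference was notenough for the rule, since 175 genes at or above the boundary failed it, 95 of them at a single stage.

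The authors' deposited table calls 122 of the 150 raised genes higher with auxin, 28 not responsive and 0 lower, where 8.52% of all genes are called higher and 9.46% lower. No source used here gives the test and stages behind these calls, which rest on the same libraries as the rule. Among the first 25, 1700012D16Rik and Socs2 were not called.

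Crebzf, a bZIP transcription cofactor that binds host cell factor, led the raised genes. With auxin it stood at 21.0 TPM in asynchronous cells, at 19.2 TPM in mitosis and at 20.7, 19.3, 24.8, 28.4, 29.1, 28.5 and 33.0 TPM at the 7 times after release. Without auxin it stood at 17.8 TPM in asynchronous cells, at 16.3 TPM in mitosis and at 18.5, 14.6, 16.1, 21.9, 25.5, 22.2 and 28.2 TPM. All 9 values were higher with auxin, and the difference was widest at 40 minutes, where it was 0.60 on the log2 scale. Crebzf was also the most abundant raised gene, with a mean of 22.5 TPM over the 18 columns.

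Promoter sequences of 115 of the 150 raised genes were matched by symbol in the RefSeq table for GRCm38.p6, which holds 250 bases before and 50 bases after a gene start. Printed here are the promoter of Crebzf, the leading gene, the promoters of Akr1b10 and Slc27a2, which were the raised genes with both an Nr5a2 peak over the promoter and the nuclear receptor core AAGGTCA, and that of Kdm6a, a chromatin gene that had the core but no peak within 10 kb. Capitals mark AAGGTCA or its reverse complement TGACCTT, which is the same site on the other strand. Each sequence reads 5′ to 3′ in the direction of the gene.
Crebzf promoter, chr7:90442531-90442830 (+ strand): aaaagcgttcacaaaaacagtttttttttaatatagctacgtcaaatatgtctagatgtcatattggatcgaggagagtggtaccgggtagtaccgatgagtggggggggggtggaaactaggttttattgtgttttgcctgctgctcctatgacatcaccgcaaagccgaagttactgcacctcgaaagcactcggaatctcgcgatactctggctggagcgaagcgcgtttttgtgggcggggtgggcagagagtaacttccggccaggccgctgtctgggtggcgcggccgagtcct
Akr1b10 promoter, chr6:34383997-34384296 (+ strand): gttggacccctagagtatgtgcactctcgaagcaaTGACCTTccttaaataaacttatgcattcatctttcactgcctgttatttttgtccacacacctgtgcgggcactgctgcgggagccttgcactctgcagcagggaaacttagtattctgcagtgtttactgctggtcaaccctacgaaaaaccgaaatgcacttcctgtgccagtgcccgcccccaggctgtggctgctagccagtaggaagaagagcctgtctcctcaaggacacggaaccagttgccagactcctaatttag
Slc27a2 promoter, chr2:126552774-126553073 (+ strand): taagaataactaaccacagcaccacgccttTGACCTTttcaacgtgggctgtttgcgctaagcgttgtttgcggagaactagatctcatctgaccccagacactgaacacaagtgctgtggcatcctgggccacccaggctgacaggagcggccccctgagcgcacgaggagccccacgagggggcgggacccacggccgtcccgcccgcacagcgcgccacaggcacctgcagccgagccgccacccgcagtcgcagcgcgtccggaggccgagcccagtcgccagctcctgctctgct
Kdm6a promoter, chrX:18162325-18162624 (+ strand): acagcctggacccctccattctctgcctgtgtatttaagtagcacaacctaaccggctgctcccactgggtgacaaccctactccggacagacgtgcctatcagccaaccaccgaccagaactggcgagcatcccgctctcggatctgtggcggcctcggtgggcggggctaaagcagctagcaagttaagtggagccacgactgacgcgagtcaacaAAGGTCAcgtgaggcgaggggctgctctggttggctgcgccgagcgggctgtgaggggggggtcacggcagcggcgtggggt
The Crebzf window held no copy of the core. The core began 215 bases before the start in Akr1b10, 220 bases before it in Slc27a2 and 32 bases before it in Kdm6a, where its last bases are shared with an E-box, CACGTG.

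Akr1b10, an aldo-keto reductase, stood at 0.812 TPM in asynchronous cells, 0.281 TPM in mitosis and 0.328, 0.406, 0.504, 0.978, 1.08, 2.10 and 3.16 TPM after release with auxin. Without auxin its values were 0.744 TPM in asynchronous cells, 0.229 TPM in mitosis and 0.274, 0.243, 0.285, 0.776, 1.10, 1.5 and 2.34 TPM. It was higher with auxin at every stage but 60 minutes, and most at 120 minutes. Slc27a2, which imports and activates very long chain fatty acids, declined after release in both arms. It stood at 3.58 TPM in asynchronous cells, 2.65 TPM in mitosis and 2.39, 2.21, 1.87, 1.34, 1.23, 0.874 and 0.525 TPM after release with auxin. Without auxin it stood at 2.31 TPM in asynchronous cells, 2.18 TPM in mitosis and 2.10, 1.68, 1.30, 1.15, 1.06, 0.696 and 0.386 TPM. Every value was higher with auxin. Kdm6a, an X-linked demethylase of lysine 27 on histone H3, was higher with auxin at 40 minutes (3.18 TPM, against 2.24 TPM without auxin) and lower with auxin at 60 minutes (6.84 TPM, against 7.12 TPM without auxin).

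**Figure D1:**
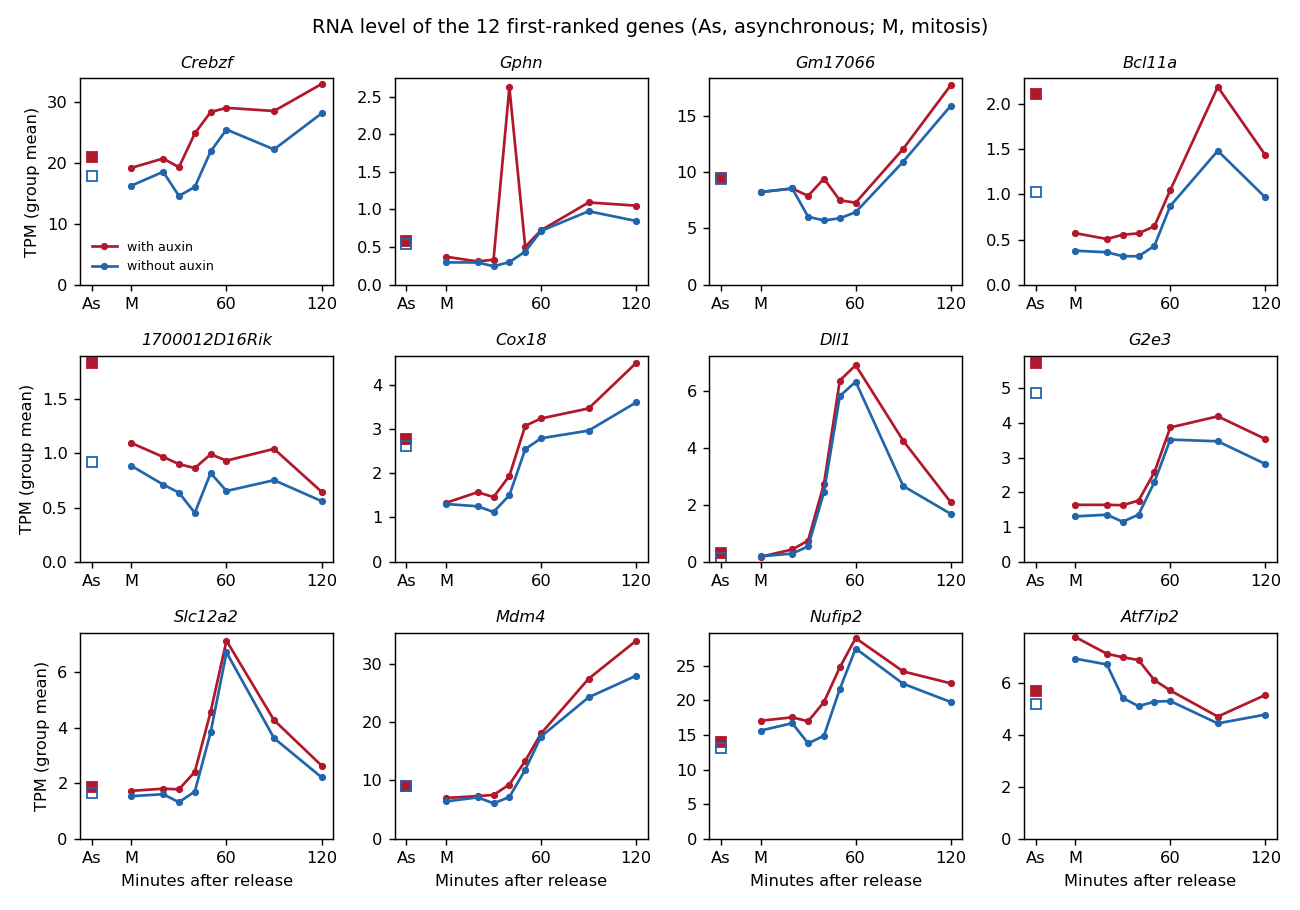
RNA level (TPM, mean of a group as deposited) of the 12 first-ranked raised genes against minutes after release, with mitosis (M) at the left of each line and asynchronous cells (As) as squares, filled for the arm with auxin and open for the arm without. The red line with auxin runs above the blue line without auxin after release in all 12 panels, while Gphn stands apart at 40 minutes alone, with 2.62 TPM with auxin and 0.299 TPM without auxin.

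The other leading genes fell into different courses. Bcl11a, a zinc-finger repressor known from blood and brain development, differed most in asynchronous cells, with 2.12 TPM with auxin and 1.02 TPM without auxin. After release it stood at 0.506, 0.553, 0.568, 0.647, 1.05, 2.19 and 1.44 TPM with auxin and at 0.359, 0.315, 0.314, 0.429, 0.872, 1.48 and 0.967 TPM without auxin. It was higher with auxin at all 9 stages. Cox18, which inserts a subunit of cytochrome oxidase into the mitochondrial membrane, climbed to 4.49 TPM at 120 minutes with auxin, against 3.60 TPM without auxin, and differed between the arms by 0.16 to 0.26 at each release time. G2e3, a ubiquitin ligase of the G2/M phase, stood at 5.72 TPM in asynchronous cells with auxin, against 4.87 TPM without auxin, and peaked after release at 4.20 TPM with auxin and 3.52 TPM without auxin. The long non-coding RNA 1700012D16Rik stood at 1.83 TPM in asynchronous cells with auxin, against 0.924 TPM without auxin, and lies within the span of St6galnac3, so its reads may be shared with that gene.

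Slc12a2, a sodium, potassium and chloride carrier, climbed and came down again in both arms, with 7.14 TPM at 60 minutes with auxin and 6.71 TPM without auxin. Nufip2, an RNA-binding protein, stood at 19.7 TPM at 40 minutes with auxin, against 14.9 TPM without auxin. Atf7ip2, a relative of a cofactor of histone methylation, was highest in mitosis, with 7.78 TPM with auxin and 6.94 TPM without auxin, and lower at each release time in both arms. Gm17066 differed between the arms at 40 minutes, with 9.42 TPM with auxin and 5.70 TPM without auxin, and hardly in mitosis, with 8.21 TPM with auxin and 8.24 TPM without auxin. Gphn, which encodes the scaffold gephyrin, owed its rank to 40 minutes. Its difference was 1.48 there and 0.01 to 0.15 at the other release times, and its mean of 0.27 became 0.07 without that time.

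Other genes among the first 25 differed in level. Sall3, a zinc-finger factor, had a release mean of 0.726 TPM with auxin and 0.522 TPM without auxin. Higher release means were those of Peg3, a paternally expressed imprinted gene (5.35 TPM with auxin and 4.74 TPM without auxin), Socs2, a feedback inhibitor of cytokine signalling (4.35 TPM with auxin and 3.79 TPM without auxin), and Ints6, a subunit of the Integrator complex (4.57 TPM with auxin and 4 TPM without auxin). Neto2, an auxiliary subunit of glutamate receptors, averaged 4.65 TPM with auxin and 4.11 TPM without auxin. Acot13, a thioesterase, averaged 1.93 TPM with auxin and 1.59 TPM without auxin. Igfbp3, which binds insulin-like growth factors, averaged 1.13 TPM with auxin and 0.897 TPM without auxin. Each of these genes was higher with auxin at all 7 times.

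By stage, the raised genes stood furthest above the arm without auxin at 30 and 40 minutes. Their median difference was 0.21 at 30 minutes and 0.26 at 40 minutes, against 0.05 and 0.08 for all genes. It was 0.05 at 20, 0.12 at 50, 0.03 at 60, 0.12 at 90 and 0.16 at 120 minutes, and 0.05 in asynchronous cells. At 40 minutes 75 of the 150 genes were at least 1.2-fold higher with auxin (6.47% of all genes), and at 30 minutes 31 were (1.46% of all genes). The count was 0 at 20 minutes (0.6% of all genes), 2 at 50 (0.589%), 1 at 60 (0.845%), 10 at 90 (1.19%) and 8 at 120 minutes (0.933%). The largest of the 7 differences fell at 40 minutes for 97 of the 150 raised genes, against 43.3% of all genes. After the median of each stage was subtracted, 40 minutes gave the largest value for 69 of the 150 genes. The same count was not made over all genes, whose differences at 40 minutes had quartiles of -0.01 and 0.16. Whether the centred count sets the raised genes apart can therefore not be read from it. These counts come from values the rule used.

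In asynchronous cells 10 raised genes were at least 1.2-fold higher with auxin (0.745% of all genes). The 5 highest differences there belonged to Bcl11a (0.62), 1700012D16Rik (0.56), Slc27a2 (0.47), Wt1 (0.45) and Btg1 (0.43). Wt1, a zinc-finger factor of kidney and gonad development, had 1.03 TPM with auxin and 0.486 TPM without auxin in asynchronous cells, and between 0.228 and 0.955 TPM with auxin and 0.131 and 0.681 TPM without auxin after release. Btg1, an antiproliferative gene, had 1.70 TPM with auxin and 1 TPM without auxin in asynchronous cells. At its peak at 50 minutes the arms of Btg1 lay close, at 12 TPM with auxin and 11.9 TPM without auxin.

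**Figure D2:**
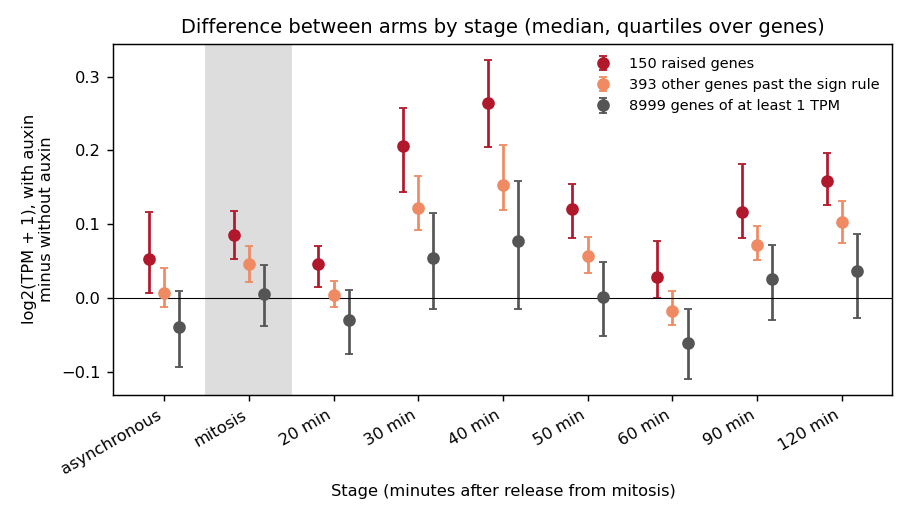
Difference in log2(TPM + 1), with auxin minus without auxin, at each of the 9 stages, for the 150 raised genes, the 393 other genes past the sign rule and all 8999 genes of at least 1 TPM. Points are medians and bars quartiles over genes, not replicate errors. The raised genes have their highest median, 0.26, at 40 minutes, and in mitosis (grey band), which the rule did not use, their median is 0.09, against 0.01 for all genes.

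In mitosis the raised genes were mostly higher with auxin as well, although the rule did not read this stage. Mitosis is not independent of the rule, since median RNA levels at 20 and 30 minutes, which the rule read, lay near the mitotic ones. The median log2 ratio of the raised genes to mitosis was 0.03 and 0.04 at these times with auxin. Without auxin it was 0.07 and -0.06. How far the values in mitosis follow from the rule was not tested. Of the 150 genes, 141 lay above the median difference of all genes in mitosis, that is 94.0%, against 50% of all genes by construction. Above 0 were 143 of them, against 53.7% of all genes, and 0 reached 1.2-fold (0.467% of all genes). Their median difference was 0.09, with quartiles of 0.05 and 0.12. Of the 393 other genes past the sign rule, 341 (86.8%) lay above the mitosis median. Of the 150 genes lowest by the mirrored rule, whose differences lay below the stage median at every release time and in asynchronous cells, 2 did.

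The share above the mitosis median was 80.8% or more in each quintile of mean TPM among the raised genes and between 47.5% and 52.6% among all genes. In the shortest quintile of gene span all 6 raised genes lay above it, in the following quintiles 16 of 22, 21 of 22 and 39 of 40, and in the longest quintile all 59. The corresponding shares of all genes were 43.4%, 45.4%, 48.4%, 53.3% and 59.6%. Where members that overlap another listed gene were left out, 114 of 121 (94.2%) remained above the median, and of the 98 genes above 0 at all 7 release times 91 (92.9%) were. With 1 value per arm these shares have no replicate check.

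Among the highest differences in mitosis were those of Crebzf (0.23), Unc5b and Fam117a (each 0.21) and Slc27a2 (0.20). Unc5b, a receptor of the guidance cue netrin, had 1.08 TPM in mitosis with auxin and 0.800 TPM without auxin. It also differed in asynchronous cells, where it had 1.55 TPM with auxin and 1.08 TPM without auxin. Fam117a had 2.57 TPM in mitosis with auxin and 2.09 TPM without auxin. The 5 lowest were Tmed5, a cargo receptor of the early secretory pathway (-0.04), Stk17b, an apoptosis-related kinase (-0.03), Dll1 (-0.02), Acot13 (-0.02) and Arrdc4, an arrestin family protein (-0.01). Tmed5 had 0.999 TPM in mitosis with auxin and 1.06 TPM without auxin, but 3.81 TPM with auxin and 3.24 TPM without auxin at 60 minutes.

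**Figure D3:**
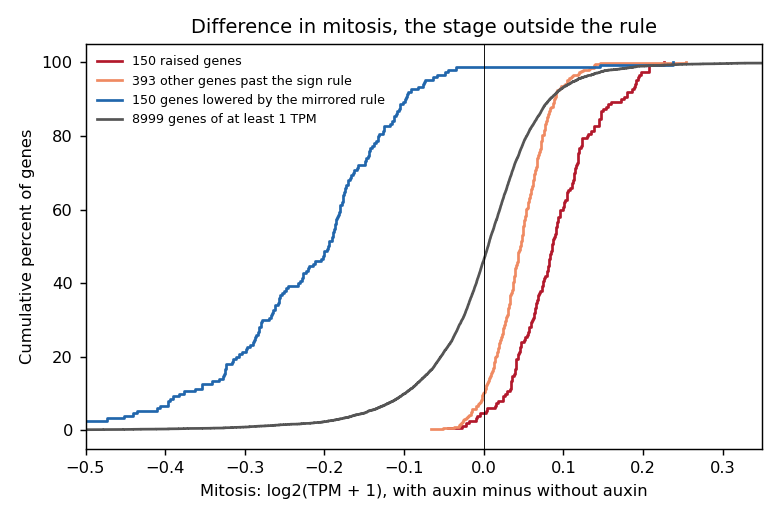
Cumulative percent of genes by their difference in mitosis (log2(TPM + 1), with auxin minus without auxin; the axis shows -0.5 to 0.35 and a few genes lie outside it) for the 150 raised genes, the 393 other genes past the sign rule, the 150 genes lowered by the mirrored rule and all 8999 genes. The curve of the raised genes lies to the right of that of all genes, with 143 of 150 above 0.

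Grouped by what they are known to do, a grouping made after the values were seen, 110 of the 150 genes fell into 15 groups. The counts of each group stand beside 94.0% of all 150 raised genes above the mitosis median (50% of all genes) and 81.3% called higher in the authors' deposited table (8.52% of all genes), and they set no group apart. DNA-binding transcription factors and coactivators were the largest, with 18 genes, all above the mitosis median. Beside Crebzf, Bcl11a, Sall3, Peg3 and Wt1 they included Foxo1, Creb1, E2f3, Pou2f1, Mxd1 and Yap1. Foxo1, the effector restrained by insulin and PI3K signalling, had 4.20 TPM in asynchronous cells with auxin and 3.49 TPM without auxin. Its release mean was 4.33 TPM with auxin and 3.93 TPM without auxin, with the arms in reverse order at 60 minutes (7.45 TPM with auxin and 7.73 TPM without auxin). Creb1, the cyclic AMP response factor, differed by 0.01 to 0.21 at the release times, and E2f3, a driver of the G1/S transition, had 16.4 TPM at 120 minutes with auxin and 14.7 TPM without auxin.

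Chromatin and histone genes made up 10 members, all above the mitosis median. Beside Kdm6a they included Kdm4c, a demethylase of lysine 9 on histone H3, which had 2.76 TPM at 40 minutes with auxin and 1.95 TPM without auxin, and Arid4b, a subunit of a histone deacetylase complex, which had 2.88 TPM at 40 minutes with auxin and 2.28 TPM without auxin. H3f3a, which encodes the replication-independent histone H3.3 and has close copies in the genome, had 16.5 TPM at 40 minutes with auxin and 13.9 TPM without auxin. The median difference of the 10 genes was 0.30 at 40 minutes and -0.02 at 60 minutes. The RNA polymerase II machinery was represented by Ints6, Ell2, Cdc73, Cdk12, Taf2, Taf4b and Sub1, which act in elongation, initiation or transcript cleavage, and all 7 lay above the mitosis median.

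RNA-binding and splicing genes numbered 12, of which 11 lay above the mitosis median. Hnrnph1, a splicing regulator, had 20.9 TPM at 40 minutes with auxin and 18.6 TPM without auxin, and was not called higher in the authors' deposited table. Lin28b, which blocks maturation of the let-7 microRNAs, was the single raised gene from the formative and primed pluripotency list. It had 4.43 TPM at 120 minutes with auxin and 3.98 TPM without auxin. Dazl, a translational regulator of germ cells, peaked at 1.05 TPM with auxin and 0.865 TPM without auxin at 60 minutes.

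Both Notch ligands among the raised genes, Dll1 and Jag1, which activate receptors on neighbouring cells, gave a sharp wave. Dll1 had 0.311 TPM in asynchronous cells, 0.173 TPM in mitosis and 0.431, 0.745, 2.74, 6.38, 6.92, 4.26 and 2.09 TPM after release with auxin. Without auxin it had 0.121 TPM in asynchronous cells, 0.191 TPM in mitosis and 0.285, 0.539, 2.44, 5.83, 6.34, 2.66 and 1.68 TPM. The arms differed most on the way down, at 90 minutes, by 0.52. Jag1 had 7.63, 9.94, 5.72 and 3.32 TPM at 50, 60, 90 and 120 minutes with auxin and 6.82, 9.66, 4.32 and 2.44 TPM at the same times without auxin. For Jag1 too the differences at 90 and 120 minutes, 0.34 and 0.33, were the largest after release.

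A group of PI3K, FOXO and nutrient signalling genes, in which the cytokine feedback gene Socs2 was also counted, held 8 genes, with 7 above the mitosis median. Pik3r3, a regulatory subunit of PI3K, reached 2.76 TPM at 60 minutes with auxin and 2.53 TPM without auxin. Foxo1 and Pik3r3 were among the 3 raised genes on a list of growth and nutrient signalling genes, which had 18 genes of at least 1 TPM, or 16.7%, against 1.67% of all genes. A group of receptors, kinases and phosphatases, in which Sulf1 was also counted, held 12 genes, with 11 above the mitosis median. Among them Fgfr1, a receptor of fibroblast growth factors, had 7.32 TPM at 120 minutes with auxin and 6.65 TPM without auxin. Tgfbr1, a receptor of TGF-beta, had 2.48 TPM at 40 minutes with auxin and 1.74 TPM without auxin, and Rasa1, a brake on Ras, had 1.25 TPM with auxin and 0.833 TPM without auxin at that time. Sulf1, which trims heparan sulfate, stayed below its mitotic level at every release time in both arms, and stood at 1.98 TPM at 120 minutes with auxin and 1.58 TPM without auxin.

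The group of p53 regulation and apoptosis held 5 genes, all above the mitosis median. Ccng1, a p53 target, had 20.9 TPM at 40 minutes with auxin and 14.2 TPM without auxin, but 27.1 TPM with auxin and 26.7 TPM without auxin at 60 minutes. Its mean difference of 0.17 became 0.10 without 40 minutes. Mdm4, an inhibitor of p53, kept climbing to 33.9 TPM at 120 minutes with auxin and 27.9 TPM without auxin. Bcl2l11, a BH3-only activator of apoptosis, reached 22.5 TPM at 60 minutes with auxin and 22.6 TPM without auxin. In Ccng1 and Bcl2l11 the arms lay further apart at 40 minutes, by 0.53 and 0.18, than at 60 minutes, where the differences were 0.02 and -0.01.

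Smaller groups were 9 genes of lipid, redox and sugar metabolism, of which 8 lay above the mitosis median, 8 genes of the endoplasmic reticulum, vesicles and nuclear import (7), 5 ubiquitin ligases (5), 5 ion and amino acid transporters (5), 4 spindle, replication origin and cytoskeleton genes (4), 3 neural genes (3) and 2 respiratory chain genes (2). Gclc, the first enzyme of glutathione synthesis, had 9.08 TPM at 120 minutes with auxin and 7.59 TPM without auxin. Slc38a2, an amino acid carrier induced by starvation, peaked at 26.2 TPM at 50 minutes with auxin and 25 TPM without auxin, and differed most at 90 minutes (12.7 TPM with auxin and 10.2 TPM without auxin). Ern1, a sensor of unfolded proteins, had 1.96 TPM at 40 minutes with auxin and 1.45 TPM without auxin.

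Of the pathway and state lists compared, naive pluripotency gave 0 of 29 genes of at least 1 TPM to the raised genes. Of the 31 naive genes listed at any level, the authors' deposited table calls 25 lower, against 9.46% of the 8999 genes. The lists of nuclear receptors (0 of 18), their coregulators (0 of 14), Wnt signalling (0 of 18), cholesterol synthesis (0 of 20), the circadian clock (0 of 14) and microRNA processing (0 of 11) gave none either. Nor did primitive endoderm (0 of 2), trophectoderm (0 of 3), germ layers (0 of 3), fibroblast (0 of 2), the aryl hydrocarbon receptor (0 of 4) and the 2-cell-like state (0 of 1), which had few genes of at least 1 TPM. Across the 8999 genes the raised genes made up 1.67%, so a count of 0 in lists this short does not show absence. The counts that follow stand beside the same share. Chromatin modifiers gave 3 of 65, the Notch pathway 2 of 18 and the unfolded protein response 2 of 19. The p53 response gave 2 of 23 and FGF and ERK feedback 2 of 23. A further 9 lists gave 1 gene each, namely Lin28b (formative and primed pluripotency), Slc38a2 (amino acid response), Tgfbr1 (TGF-beta and BMP), Btg1 (immediate early), G2e3 (mitosis), E2f3 (G1/S and replication), Hnrnph1 (splicing regulators), Gclc (oxidative stress) and Cox18 (oxidative phosphorylation). With the 3 of growth and nutrient signalling, 23 of the 150 raised genes stood on any of the 28 lists. The lists' medians over the release times were small, against 0.02 for all genes. The highest were 0.05 for the unfolded protein response and 0.04 for splicing regulators, growth and nutrient signalling, Wnt signalling and chromatin modifiers. Others were 0.03 for the Notch pathway, 0.01 for the p53 response and -0.19 for naive pluripotency.

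After release, RNA of most raised genes climbed to 60 minutes and stood lower at 120 minutes in both arms. At 60 minutes 91 raised genes were at least 2-fold above their mitotic TPM + 1 with auxin (60.7%, against 46.8% of all genes) and 97 without auxin (64.7%, against 50.8% of all genes). The highest of the 7 release values fell at 60 minutes for 76 raised genes with auxin (36.8% of all genes) and 91 without auxin (45.6% of all genes). It fell at 120 minutes for 21 with auxin (24.5% of all genes) and 19 without auxin (12.7%, against 22.8% of all genes). With genes chosen again at a pseudocount of 0.1 that share without auxin was 22%, close to that of all genes. Between 60 and 120 minutes 107 raised genes declined with auxin (57.4% of all genes) and 113 without auxin (63.3% of all genes). At 40 minutes 18 raised genes were already 2-fold above mitosis with auxin (6.01% of all genes) and 15 without auxin (5.73%), and at 120 minutes 54 with auxin (34.9%) and 48 without auxin (33.1%). The share at least 2-fold above mitosis at 60 minutes without auxin became 15.3% under quantile normalization of the columns, which removes the rise shared by all genes. The share of all genes under that setting was not computed, so the 15.3% has no background beside it.

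The median log2 ratio of the raised genes to their mitotic level was 0.27 at 40 minutes with auxin and 0.10 without auxin, where all genes had 0.21 with auxin and 0.14 without auxin. At 60 minutes it was 1.19 with auxin and 1.22 without auxin, where all genes had 0.95 with auxin and 1.01 without auxin. At 120 minutes it was 0.77 with auxin and 0.66 without auxin, where all genes had 0.84 with auxin and 0.81 without auxin. Relative to mitosis, the median of the raised genes was thus higher with auxin at 40 and 120 minutes and lower with auxin at 60 minutes. These ratios share the columns that the rule read.

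Peg3, Dnajb14, a co-chaperone, Atp6v1b2, a subunit of the vacuolar proton pump, and Bcl2l11 were among the genes with the highest ratios of 60 minutes to mitosis without auxin. Peg3 had 13.4 TPM at 60 minutes and 0.390 TPM in mitosis with auxin, and 13.0 TPM at 60 minutes and 0.340 TPM in mitosis without auxin. Dnajb14 had 13.5 TPM at 60 minutes and 1.17 TPM at 120 minutes with auxin, and 13.4 TPM at 60 minutes and 1.08 TPM at 120 minutes without auxin. The 5 lowest ratios were those of Slc27a2, Sulf1, Atf7ip2, Gm17066 and Fmnl2, a formin that elongates actin filaments. Fmnl2 had 1.22 TPM at 60 minutes and 1.77 TPM in mitosis with auxin, and 1.09 TPM at 60 minutes and 1.5 TPM in mitosis without auxin.

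**Figure D4:**
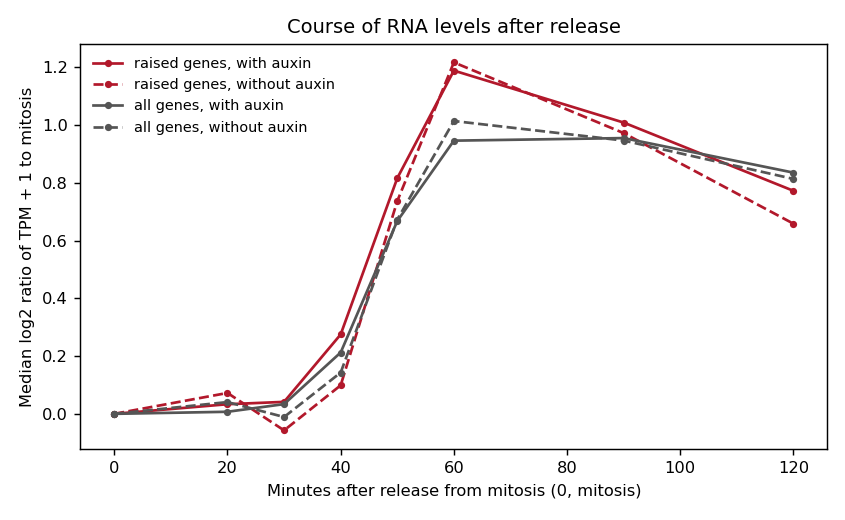
Median over genes of the log2 ratio of TPM + 1 to mitosis against minutes after release, for the 150 raised genes (red) and all 8999 genes of at least 1 TPM (grey), with auxin (solid) and without auxin (dashed). The raised genes peak at 60 minutes, at 1.19 with auxin and 1.22 without auxin, and end at 0.77 with auxin and 0.66 without auxin at 120 minutes.

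The raised genes were moderately expressed and long. Their median TPM over the 18 columns was 3.18, against 2.24 for all genes, and ranged from 0.280 TPM for Gm14305, a gene of a zinc-finger family with close copies, to Crebzf. The other low genes were Dazl, Gap43, Wt1 and Tcaf2. Gap43, a growth cone protein of neurons, had 1.13 TPM at 120 minutes with auxin and 0.640 TPM without auxin. After Crebzf, the most abundant were the non-coding RNA Gt(ROSA)26Sor, whose span overlaps Thumpd3, Nufip2, Hnrnph1 and Ccng1. Gt(ROSA)26Sor had 27.9 TPM at 40 minutes with auxin and 22.1 TPM without auxin.

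A RefSeq position on GRCm38.p6 was found for 149 of the 150 genes, of which 143 were protein-coding and 6 long non-coding. Their median span was 49834 bp, against 21821.5 bp for all genes and 23658 bp for the genes lowered by the mirrored rule. In the longest quintile of span lay 59 of the 149 (39.6%), against 20.0% of all genes, and in the shortest quintile 6 (4.03%). The 393 other genes past the sign rule were longer still, with a median span of 59995 bp and 51.1% in the longest quintile. Length is therefore not particular to the 150 raised genes. Over all genes the median difference rose with span, at -0.01, 0.00, 0.01, 0.03 and 0.04 in the quintiles from shortest to longest. The share of all genes past the sign rule rose with span too, at 0.612%, 2.28%, 4.34%, 8.45% and 14.5%. The cause of this rise was not tested. In the longest quintile 9 of 59 raised genes (15.3%) were highest at 120 minutes in either arm, against 41.4% of all genes of that quintile with auxin and 37.9% without auxin.

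Few raised genes lay side by side. On chromosome 3, Dnajb14 and Lamtor3, a scaffold of nutrient signalling at the lysosome, are 1992 bp apart, and Smc4, a condensin subunit, and Kpna4, a nuclear import receptor, are 37598 bp apart. Lamtor3 had 2.66 TPM at 30 minutes with auxin and 2 TPM without auxin, Smc4 8.23 TPM at 40 minutes with auxin and 6.24 TPM without auxin, and Kpna4 4.13 TPM at 40 minutes with auxin and 2.92 TPM without auxin. The spans of 29 raised genes overlap another listed gene, where reads could be shared between them, since no source used here states the strand setting of the counting.

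An Nr5a2 peak lay in the gene or within 10 kb of it for 97 of 149 raised genes (65.1%, against 71.9% of all genes) and for 149 of the 150 genes lowered by the mirrored rule (99.3%). The peak list gives each peak 1 of the 4 class codes L, eB, dB and nB, which no source used here defines. A peak of class L lay at 77 raised genes (51.7%, against 54.4% of all genes), of class eB at 34 (22.8%, against 28.1%), of class dB at 17 (11.4%, against 19.1%) and of class nB at 18 (12.1%, against 13.9%). Long genes hold more peaks, so the shares were also read within quintiles of span. From shortest to longest they were 66.7%, 54.5%, 54.5%, 52.5% and 81.4% for the raised genes and 65.7%, 67.5%, 68.0%, 72.9% and 85.6% for all genes. The raised genes were below all genes in the 4 longer quintiles and above them in the shortest, which held 6 raised genes.

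From the gene start to the centre of the nearest peak the median distance was 13957 bp for 115 raised genes, against 8508.5 bp for all genes with a promoter entry and 999 bp for the genes lowered by the mirrored rule. Within 10 kb of the start a peak was found for 50 of the 115 (43.5%), against 53.6% of all genes. For the 315 other genes past the sign rule the median distance was 18664 bp. A peak lay within 10 kb in 35.6% of them and over the promoter in 10.2%. A peak overlapped the promoter of 11 raised genes (9.57%), against 14.4% of all genes and 44.2% of the lowered genes. These were G2e3, Akr1b10, Ern1 and B4galnt3 with class L, Slc27a2, Ccng1, Ell2, Trak2, Depdc7 and Hnrnph1 with class eB, and Bmt2 with class dB. Crebzf had its nearest peak 94548 bp away and Dll1 37701 bp away, while Jag1 (777 bp, class dB) and Bcl11a (778 bp, class L) had one near the start. The most peaks were at Sulf1 (13), B4galnt3 (9) and Trerf1 (8), followed by 7 each at Mdm4, Rtn4, Fmnl2, Cdyl and Hunk. Binding was mapped in wild-type cells and peaks carry no height here, so strength could not be compared.

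**Figure D5:**
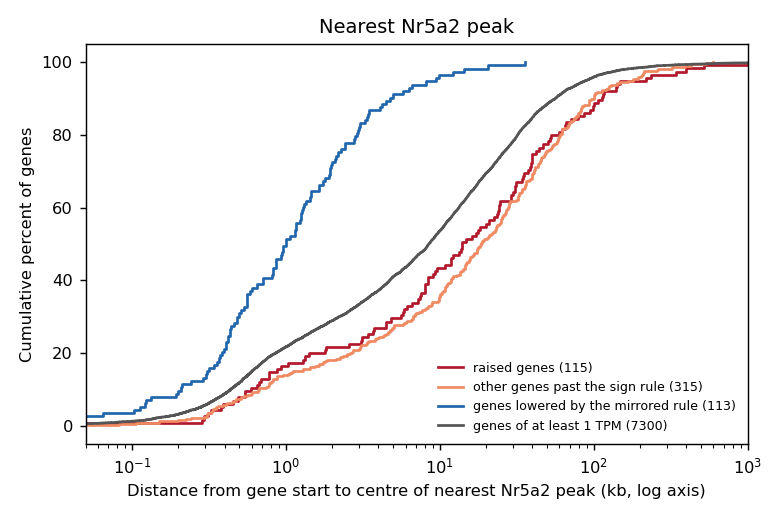
Cumulative percent of genes by distance from the gene start to the centre of the nearest Nr5a2 peak (kb, log axis), for 115 raised genes, 315 other genes past the sign rule, 113 genes lowered by the mirrored rule and 7300 genes of at least 1 TPM. At 10 kb the raised genes stand at 43.5%, all genes at 53.6% and the lowered genes at 96.5%.

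In the promoter windows, motifs were searched on both strands. The extended receptor site TCAAGGTCA, which contains AAGGTCA, was in 0 of 115 raised promoters, against 0.37% of those of all genes of at least 1 TPM and 0.423% of all promoters of the table. The core AAGGTCA was in 6 (5.22%), against 3.66% of all genes, 4.72% of all promoters of the table and 7.96% of the genes lowered by the mirrored rule. The 6 were Atf7ip2, Akr1b10, Slc27a2, Kdm6a, Abhd5, a cofactor of fat breakdown, and the non-coding RNA gene Gm11944. The cyclic AMP response element TGACGTCA was in 4 (3.48%, against 4.31%) and the E-box CACGTG in 15 (13.0%, against 13.0%). The median GC content of the windows was 64.7% for the raised genes and 61.3% for all genes. A match is a match of letters, not a bound site.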

How the data were processed

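RNA-seq libraries were ribo-depleted, stranded and paired-end, per the labels' protocols. STAR, RSEM and DESeq2, with Bowtie2 and MACS2 for ChIP-seq and the mm10 build, are named per the submitters' processing notes, without versions or roles. The authors deposited expression as TPM, 1 mean column per group of 3 libraries, with their own call per gene, and 1 list of Nr5a2 peaks.

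From these TPM values, log2(TPM + 1) and its difference between the arms were computed with pandas 2.3.3 and numpy 2.4.6, which understates changes of low genes. Group means do not allow the limma test planned for mitosis. Counts and medians therefore stand beside those of all genes of at least 1 TPM. The scripts were tested on simulated data with genes raised at least 1.2-fold, a mean difference that 2 of the raised genes reached. Smaller differences were not simulated. Gene positions and promoters are RefSeq, GRCm38.p6. Peaks were assigned within 10 kb of a gene's span, and promoters hold 250 bases before and 50 bases after the start.

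The members, gene lists and tests were chosen with earlier results of these data known. Named by rule were the first 25 members, the extremes in mitosis, in asynchronous cells, in level, in peaks and in the rise to 60 minutes (5 each), members on the 28 lists, those beside the rank boundary, members within 50 kb of each other, and Esrrb and Nr5a2. Other names were chosen after their values were seen. Some genes that the rule names are not reported here. No microRNA gene was a member. Alternatives were another pseudocount, no filter, differences above 0, quantile normalization, other numbers of members, ranking by the lowest difference, leaving out each release time, and other peak windows.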

Additional observations from a re-analysis of the deposited data

How the results depend on the processing

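The share of raised genes above the mitosis median ranged from 86% to 96% over all alternatives, against 94.0%, with the lowest values when genes were chosen again without 20 minutes (86%) and without 90 minutes (88.7%). The choice of genes depended more on the settings: 90 of the 150 were kept with a pseudocount of 0.1, 81 with differences above 0 in place of the median, and 87 when ranked by the lowest difference. The share at least 2-fold above mitosis at 60 minutes without auxin, 64.7%, became 56% with differences above 0, 52% with ranking by the lowest difference and 15.3% under quantile normalization. The share highest at 120 minutes without auxin, 12.7%, became 22% with a pseudocount of 0.1, 20.0% with differences above 0 and 20.7% with ranking by the lowest difference. The share with a peak within 10 kb, 65.1%, became 57.0% without 20 minutes, 49.7% within the gene span and 85.2% within 50 kb. The share in the longest quintile of span, 39.6%, became 30.9% without the filter on low values. The cause was not tested. Of 1500 single-gene values under alternatives, 62 moved by over 1.5 times, 56 of them with a pseudocount of 0.1 and 6 without 40 minutes, while their sign was largely fixed by the choice of genes. The 2 alternatives for mitosis that leave out overlapping genes or genes not above 0 at all times were added after seeing the data.

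No paired analysis was possible because the deposited columns are group means that carry no replicate number, and leaving out single replicates could not be run for the same reason. The depth behind a value is unknown, so no limit of detection can be given for genes listed near 0.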

Other observations

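Outside the raised genes, Zc3h7a and Filip1l had a larger mean difference that rested on the 40 minute columns, as in Gphn. They were chosen after their values were seen. Zc3h7a, an RNA-binding zinc-finger gene, had a mean difference of 0.49 with 4.13 at 40 minutes and was below the stage median at 5 of the 8 stages of the rule. Filip1l had a mean of 0.39 with 2.78 at 40 minutes. Over all 8999 genes, differences at 40 minutes ran from -2.32 to 4.13, against -1.18 to 0.95 at 50 minutes, -1.28 to 2.59 at 60 minutes and -1.38 to 1.51 in mitosis. Whether single libraries carry these values cannot be read from group means and was not tested.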
